A study of Danio rerio with 3 samples.

Results

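Proteasome subunit genes were followed in the liver of zebrafish larvae fed a high-cholesterol diet (HCD) with or without berberine (BBR), a plant alkaloid. Genes were chosen by name: every array probe whose RefSeq accession matched a zebrafish gene symbol beginning with psma, psmb, psmc, psmd or psme and a digit was taken, except the inducible subunits psmb8a and psmb9a. The choice gave 51 of the 28287 genes on the array, of which 49 encode subunits, assembly chaperones or activators of the proteasome and 2, psmc3ip and psme3ip1, encode proteins that only interact with one. The 49 comprised 10 genes of the alpha rings, 7 of the beta rings, 5 inducible or tissue-specific beta genes, 11 of the base, 9 of the lid, 3 assembly chaperones and 4 activators.

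All larvae were of the AB strain, were unfed to 5 dpf (days post fertilization) and were then fed for 10 days to 15 dpf. The HCD+BBR group received 180 mg AP100 feed per 100 fish per day with 4% cholesterol and 5 μM BBR, the HCD group the same feed without BBR, and the control group 30 mg AP100 per 100 fish per day. The HCD therefore differed from the control diet in the amount of feed as well as in cholesterol. Each group had 1 single-colour array, so differences between groups have no replicate error, no p-value is given, and "higher" or "lower" refers to these 3 arrays. How many fish gave RNA to an array is not given in the sources used here.

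The arrays were of like brightness, with 88.5% to 92.3% of 43803 spots well above background and no saturated spot. The HCD+BBR and control arrays lay on one slide and the HCD array on another, so the slide cannot be told apart from the diet in HCD against control, nor from BBR in HCD+BBR against HCD, whereas HCD+BBR against control was made within a slide. Hepatocyte markers were bright on all arrays, but so were those of other tissues: over the markers with a value on every array, the summed intensity of 11 hepatocyte genes was 393404 (HCD+BBR), 339660 (HCD) and 351490 (control), that of 8 exocrine pancreas genes 438492, 365997 and 440982 on the same arrays, and that of 7 skeletal muscle genes 353424, 328672 and 373759. In such mixed tissue, fewer cells of a type and less RNA per cell cannot be told apart.

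The proteasome is the cell's main protease for proteins marked with ubiquitin. Its core particle is a barrel of stacked rings, in which the outer alpha rings form the gate and the inner beta rings carry the active sites. A regulatory particle caps the barrel: the base holds a ring of ATPases that unfold the substrate and thread it into the core, and the lid removes the ubiquitin chain. Immune signals such as interferon replace the catalytic beta subunits by inducible ones and induce the PA28 activator, which together favour the production of peptides for MHC class I. In most cells the constitutive subunits are transcribed together, in mammals under the factor Nrf1, encoded by NFE2L1.

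All 37 constitutive genes of the core, base and lid had a bright probe. When all genes were ranked by mean intensity and divided into 10 equal bins, 27 of these genes fell in the brightest bin, 9 in the next and 1, psmd11b, in the one below. Only psmb11a, the counterpart of a thymus-specific subunit in mammals, was not well above background on any array, with intensities of 23.5 (HCD+BBR), 7.13 (HCD) and 21.5 (control). The spots of psmd8, a lid gene, and psme4b, an activator gene, were marked as outliers on the HCD array, and these genes entered only the comparison of HCD+BBR with control. This left 46 genes in both comparisons with the HCD array and 48 in the other.

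**Figure D1:**
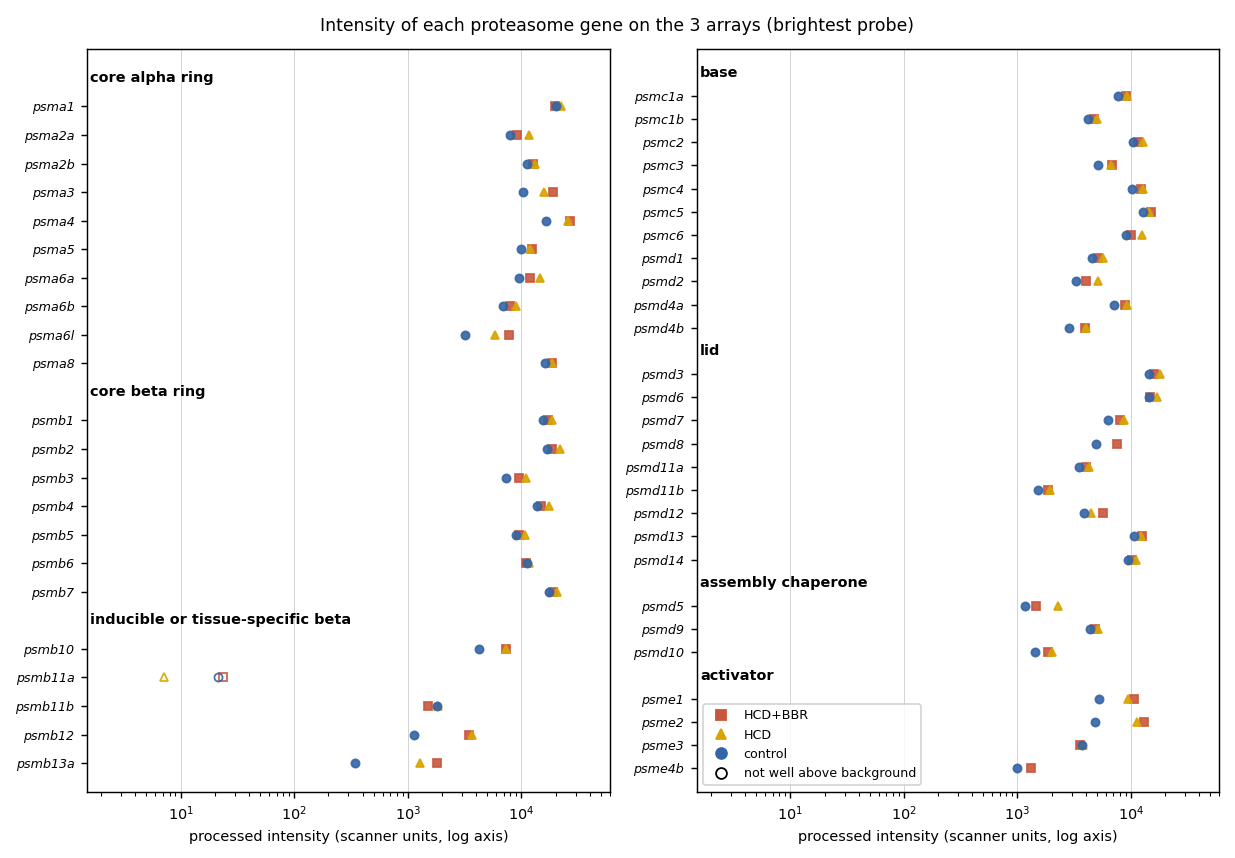
Processed intensity (log axis) of the probe used for each of the 49 proteasome genes, by class. The arrays are HCD+BBR (squares), HCD (triangles) and control (circles). Open symbols were not well above background, and outlier spots are not drawn. The symbols of most core, base and lid genes nearly coincide, while those of psmb12, psmb13a, psme1, psme2 and psma6l lie clearly apart, with control lowest.

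The inducible beta subunits stood furthest from control. The gene psmb13a had an intensity of 1793 in HCD+BBR larvae, 1284 in HCD larvae and 345.7 in control larvae. After scaling to the 75th percentile of each array, which all fold changes below use, this was 3.69-fold higher in HCD than in control and 4.86-fold higher in HCD+BBR than in control. The gene psmb12 measured 3474 in HCD+BBR larvae, 3702 in HCD larvae and 1126 in control larvae, or 3.26-fold and 2.89-fold higher than control in HCD and HCD+BBR. A dimmer probe for psmb12 gave log2 differences of 1.63 (HCD minus control) and 1.34 (HCD+BBR minus control). For both genes the 2 high-cholesterol arrays were high and the control array was low. The values of psmb13a rest on a single probe. The size depended on the processing. With normexp background correction the log2 difference of HCD minus control was 1.43 for psmb13a and 1.28 for psmb12, against 1.88 and 1.71 as reported. For HCD+BBR minus control it was 1.86 and 1.29, against 2.28 and 1.53.

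The gene psmb10, which encodes the inducible form of the trypsin-like subunit, had 7350 in HCD+BBR larvae, 7375 in HCD larvae and 4204 in control larvae. This corresponds to log2 differences of 0.80 (HCD minus control), -0.09 (HCD+BBR minus HCD) and 0.71 (HCD+BBR minus control), short of 2-fold. Its other 2 probes gave 1.77-fold and 2.14-fold for HCD over control. The subunit it replaces, psmb7, had 19154 in HCD+BBR larvae, 20517 in HCD larvae and 17434 in control larvae, a log2 difference of only 0.22 between HCD and control. Within the arrays the change of psmb10 thus exceeded that of psmb7 by 0.58 on the log2 scale in HCD against control and by 0.67 in HCD+BBR against control.

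The gene psmb9a, the inducible form of the caspase-like subunit, lies outside the chosen set but was measured. It had 4518 in HCD+BBR larvae, 5417 in HCD larvae and 1532 in control larvae, 3.51-fold and 2.77-fold higher than control in HCD and HCD+BBR. Its constitutive counterpart psmb6 read 10989 in HCD+BBR larvae, 11626 in HCD larvae and 11200 in control larvae, and was therefore nearly level. No probe carried the name psmb8a. In the gene order of assembly GRCz12tu, psmb13a, psmb8a, psmb12 and psmb9a are consecutive genes, and psmb9a is followed by tap2a, which encodes a subunit of the transporter that carries peptides to MHC class I. The tissue-specific gene psmb11b did not share the pattern, with 1518 in HCD+BBR larvae, 1844 in HCD larvae and 1823 in control larvae, although its other probe was not well above background on any array.

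The activators split in the same way. The genes psme1 and psme2 encode the 2 subunits of PA28. The intensity of psme2 was 12998 in HCD+BBR larvae, 11236 in HCD larvae and 4807 in control larvae, 2.32-fold higher in HCD and 2.54-fold higher in HCD+BBR than in control. That of psme1 was 10703 in HCD+BBR larvae, 9377 in HCD larvae and 5242 in control larvae, 1.78-fold and 1.91-fold higher than control in HCD and HCD+BBR, and its other probe gave 2.06-fold and 2.25-fold. The gene psme3, which encodes the related nuclear activator, read 3579 in HCD+BBR larvae, 3763 in HCD larvae and 3673 in control larvae. Its 3 dimmer probes gave log2 differences of -0.49, -0.46 and -0.00 for HCD minus control, so no probe of psme3 was clearly higher with the diet. The change of psme2 exceeded that of psme3 by 1.19 (HCD against control) and 1.47 (HCD+BBR against control) on the log2 scale. The gene psme4b, which encodes a large single-chain activator, had 1307 in HCD+BBR larvae and 982 in control larvae, a log2 difference of 0.32. With its outlier spot kept, psme4b read 1313 in HCD larvae.

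Leukocyte markers, like the inducible subunits and PA28, were higher on both high-cholesterol arrays than on the control array. Of 10 listed leukocyte genes 8 were on the array. All 8 were higher in HCD+BBR and in HCD than in control, beside 46.5% and 37.8% of all genes. Their summed intensity was 64344.6 in HCD+BBR larvae, 52535.6 in HCD larvae and 34348.8 in control larvae. In HCD+BBR against HCD 4 of them were higher and 4 lower. The median log2 difference of these 8 was 0.61 for HCD minus control, 0.17 for HCD+BBR minus HCD and 0.88 for HCD+BBR minus control. None was at or near background. The 2 largest differences between HCD and control were those of mpx, the myeloperoxidase of neutrophils, at 1.53, and mfap4.1, a macrophage marker, at 1.18. Of 4 erythrocyte markers on the array 2 were higher in HCD than in control, with a summed intensity of 69971.4 in HCD+BBR larvae, 66901 in HCD larvae and 49153.1 in control larvae. The part of leukocyte or erythrocyte RNA in the values of psmb10, psmb12, psmb13a, psme1 and psme2 was not tested.

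Among all 49 genes, 3 of 46 measured were at least 2-fold higher in HCD than in control (psmb12, psmb13a and psme2), beside 3.69% of all genes. None was 2-fold lower, beside 4.68% of all genes. In HCD+BBR against control 4 of 48 were at least 2-fold higher, the same 3 and psma6l, beside 3.95% of all genes, and none was lower, beside 1.36%. In HCD+BBR against HCD 0 of 46 passed 2-fold in either direction, beside 6.73% of all genes. These shares include many dim genes. Of genes at least as bright as the dimmest constitutive subunit, 214 of 7695 were 2-fold higher and 77 lower in HCD against control. In HCD+BBR against HCD 100 of 7860 such genes were 2-fold higher and 49 lower. In HCD+BBR against control 201 of 7898 were 2-fold higher and 45 lower.

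In HCD against control, all 36 measured constitutive subunits were higher in HCD, by a median of 0.31 on the log2 scale (1.24-fold) and a range of 0.04 to 0.88. They remained higher in 36 of 36 under every other scaling of the arrays, but in 33 of 36 with normexp background correction, in 33 of 36 with the mean of all probes, and in 17 of 24 with the second brightest probe. Over all 24567 genes compared, 37.8% were higher in HCD and the median difference was -0.16. Among the 8181 genes at least as bright as the dimmest of these subunits, 45.4% of those measured were higher and the median was -0.05. The SD between the 36 subunits was 0.17, against 0.48 over these bright genes. Past 1.5-fold higher were 10 of the 46 proteasome genes, beside 9.51% of all genes, and 4 of them were constitutive: psma6l, psma4, psma6a and psmd2.

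**Figure D2:**
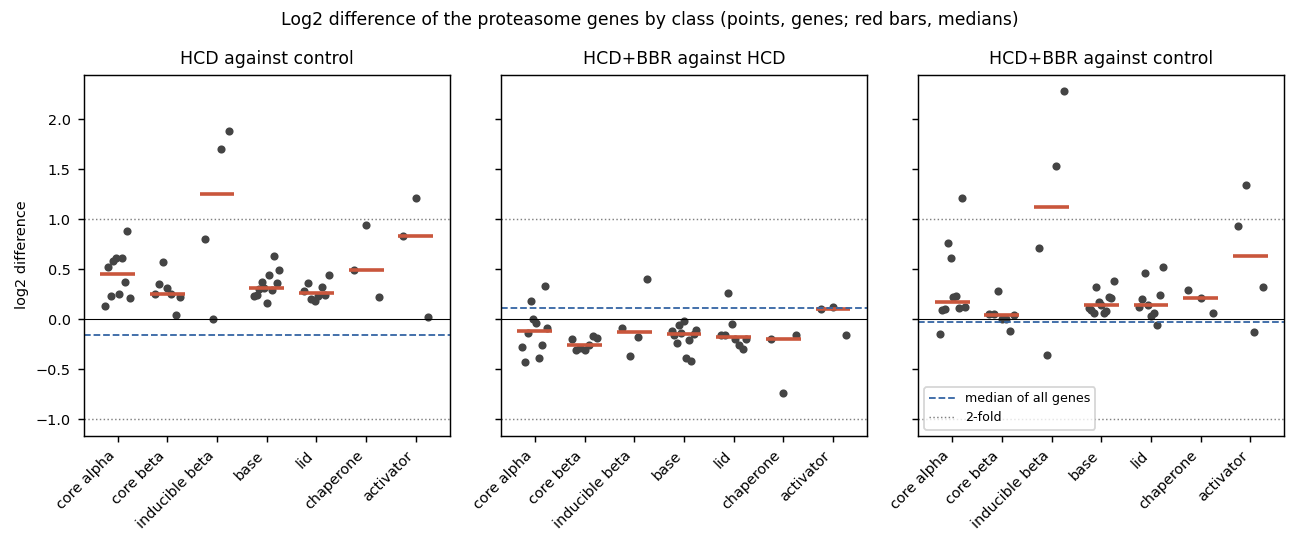
Log2 difference of the probe used for each proteasome gene (points) by class in the 3 comparisons, with class medians (red bars), the median of all genes (dashed) and 2-fold (dotted). In HCD against control every class lies above the median of all genes of -0.16, with the inducible beta genes and the activators most spread; in HCD+BBR against HCD all beta ring and base genes lie below 0.

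Other large assemblies on the same arrays gave a scale for this. Of 78 cytosolic ribosomal protein genes 71 were measured in HCD against control, of which 2 were higher in HCD, with a median of -0.22. The 8 genes of the chaperonin TRiC, which folds actin and tubulin, were all lower in HCD, with a median of -0.19. The SD between genes was 0.16 for the ribosomal protein genes and 0.10 for TRiC, so the narrow spread was not particular to the proteasome. In HCD+BBR against control the constitutive proteasome subunits had a median of 0.12, against -0.14 for the ribosomal protein genes and -0.26 for TRiC.

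By position in the particle, the alpha rings had the highest median in HCD against control at 0.45 (10 genes), followed by the base at 0.31 (11 genes), the lid at 0.26 (8 genes) and the beta rings at 0.26 (7 genes). The spread within each class (SD of 0.24, 0.13, 0.09 and 0.16) was as large as or close to the distance between most of these medians. The order of these classes, the first place of the alpha rings included, is therefore not resolved. Within the base, the 7 ATPase genes had a median of 0.30 and the 4 other genes one of 0.43.

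In the alpha rings, psma6l stood out. It is a gene related to psma6a and psma6b, and it had 7836 in HCD+BBR larvae, 5875 in HCD larvae and 3164 in control larvae, with log2 differences of 0.88 (HCD minus control) and 1.22 (HCD+BBR minus control). It was highest with BBR and lowest in control. The paralog psma6a had 11877 in HCD+BBR larvae, 14628 in HCD larvae and 9487 in control larvae, and psma6b had 7960 in HCD+BBR larvae, 8983 in HCD larvae and 6888 in control larvae. Both were therefore highest on the HCD array. On the log2 scale the change of psma6l exceeded that of psma6a by 0.27 in HCD against control and by 0.72 in HCD+BBR against HCD. Each of these 3 genes had a single probe, and whether related transcripts bind it was not tested.

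The gene psma3 had 18862 in HCD+BBR larvae, 15704 in HCD larvae and 10429 in control larvae. It followed the order of psma6l at a smaller size, with log2 differences of 0.58 (HCD minus control) and 0.76 (HCD+BBR minus control). The gene psma4 had 27063 in HCD+BBR larvae, 25503 in HCD larvae and 16613 in control larvae, 1.52-fold and 1.53-fold higher than control in HCD and HCD+BBR, but its other probe gave log2 differences of only 0.44 and 0.14. The paralogs psma2a and psma2b differed by 0.53 and 0.23 for HCD minus control and by 0.10 each for HCD+BBR minus control. The smallest alpha ring difference was that of psma1, with 19596 in HCD+BBR larvae, 22393 in HCD larvae and 20281 in control larvae, which was 0.13 higher in HCD and 0.14 lower in HCD+BBR than in control on the log2 scale. Its other probes gave -0.03 and 0.10 for HCD+BBR minus control. The gene psma8 differed by 0.21 (HCD minus control) and 0.12 (HCD+BBR minus control).

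In the beta rings the 3 genes of the active sites differed little between HCD and control. The gene psmb5, for the chymotrypsin-like site, had 9535 in HCD+BBR larvae, 10764 in HCD larvae and 8946 in control larvae, a log2 difference of 0.26 for HCD minus control. Its other 2 probes gave 0.14 and -0.18, so its direction depends on the probe. The gene psmb6, for the caspase-like site, differed by 0.04 and psmb7, for the trypsin-like site, by 0.22. The largest beta ring difference was that of the non-catalytic psmb3, with 9582 in HCD+BBR larvae, 11061 in HCD larvae and 7360 in control larvae, at 0.58 for HCD minus control.

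In the base, all 11 genes were higher in HCD than in control by the probes used. The gene psmd2, for a scaffold that receives shuttle factors, differed most, with 4052 in HCD+BBR larvae, 5097 in HCD larvae and 3261 in control larvae and a log2 difference of 0.63. Its other 2 probes gave only 0.19 and 0.01. The least changed was the ATPase gene psmc5, with 14944 in HCD+BBR larvae, 14270 in HCD larvae and 12684 in control larvae, a difference of 0.16, whose other probes gave 0.16, -0.15 and -0.38. Among the ATPase genes psmc6 differed most, at 0.44. The paralogs psmd4a and psmd4b, for a ubiquitin receptor, differed by 0.36 and 0.49, and psmc1a and psmc1b, for an ATPase, by 0.23 and 0.24. Other probes of psmc1a ran from -0.10 to 0.47. Others gave -0.45 for psmd1 (a dim probe), -0.10 for psmc4 and -0.06 for psmc3, so several base genes change direction with the probe. The other probes of psmc2, psmc6, psmd4a and psmd4b stayed above 0.

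In the lid, the differences of HCD minus control for the probes used ran between 0.18 (psmd13) and 0.44 (psmd7, a partner of the deubiquitinase). Other probes gave -0.50 for psmd13, -0.19 for psmd6, -0.03 for psmd11b and 0.59 for psmd7, so several lid genes change direction with the probe. The deubiquitinase gene psmd14 had 10246 in HCD+BBR larvae, 11063 in HCD larvae and 9357 in control larvae, a log2 difference of 0.23. The paralogs psmd11a and psmd11b, for a structural lid subunit, differed by 0.28 and 0.36. With its outlier spot kept, psmd8 read 7497 in HCD+BBR larvae, 8510 in HCD larvae and 4894 in control larvae, a difference of 0.79 for HCD minus control that rests on that spot.

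The 3 assembly chaperones, which help to build the base in mammals and yeast, were also higher in HCD. The gene psmd5 had 1447 in HCD+BBR larvae, 2272 in HCD larvae and 1172 in control larvae, with log2 differences of 0.94 (HCD minus control) and -0.73 (HCD+BBR minus HCD). It was high on the HCD array alone. Its other, much dimmer probe gave 0.72 and -0.49 for these comparisons. The gene psmd10 differed by 0.49 and psmd9 by 0.23 for HCD minus control.

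Probes of one gene did not always agree, and this bounds what the small differences can carry. A psmb7 probe printed 5 times on each array had an SD of 0.06 (HCD+BBR), 0.04 (HCD) and 0.07 (control) log2 units between its spots. In contrast, the SD between different probes of one gene, pooled over all genes with several probes, was 0.31 for HCD minus control. This SD was about as large as the median difference of the constitutive subunits. The probe used was higher in HCD for all 36 measured constitutive subunits, whereas 27 of their 38 other probes were, with a median of 0.15. For psmb10, psmb12 and psme1, all 4 other probes were higher in HCD and in HCD+BBR than in control, by 0.83 to 1.63 and by 0.72 to 1.34 on the log2 scale.

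**Figure D3:**
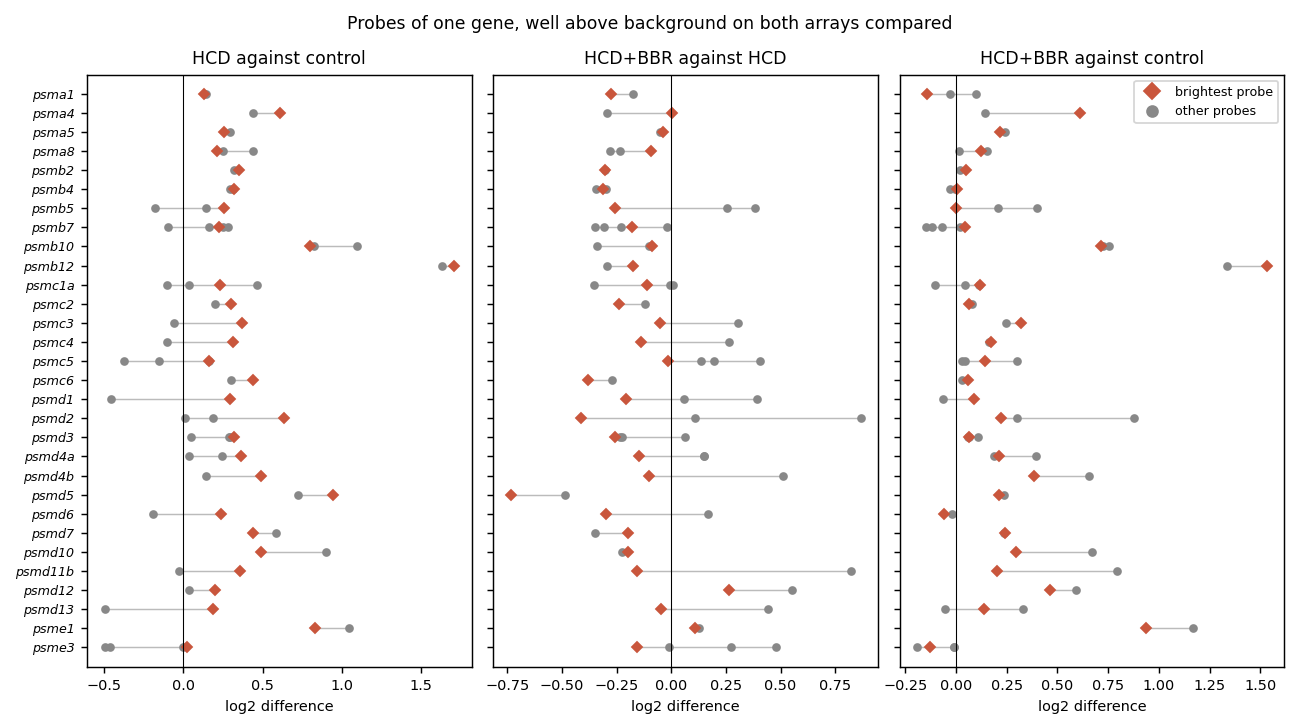
Log2 difference of every probe of the proteasome genes that have several, for probes well above background. The probe used for each gene is a diamond and the others are circles. The probes of psmb10, psmb12 and psme1 stay well right of 0 in both comparisons with control, while those of psmd13, psmc5 and psme3 spread over both sides in HCD against control.

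HCD+BBR against HCD compares larvae with and without BBR on the same diet, but on arrays of different slides, so BBR and slide cannot be told apart. Most constitutive subunits were slightly lower with BBR: 32 of the 36 measured were below 0, with a median of -0.17 (0.887-fold) and a range of -0.43 to 0.33. Over all genes 60.3% were higher with BBR and the median was 0.11. Of the genes at least as bright as the dimmest constitutive subunit 46.8% were higher, with a median of -0.03. Intestine markers were lower with BBR as well: all 5 on the array were lower in HCD+BBR than in HCD (median -0.21) and 4 of 5 were higher in HCD than in control (median 0.13), with a summed intensity of 104417 in HCD+BBR larvae, 115057 in HCD larvae and 107971 in control larvae. The part of intestinal RNA in the subunit values was not tested. By the probes used, all 7 beta ring genes were lower (-0.31 to -0.16) and all 11 base genes were lower (-0.41 to -0.02). Another probe for the base gene psmd1, passed over because its control spot was an outlier, gave 0.06. Other probes were higher with BBR for psmb5 (0.26 and 0.38), psmc3 (0.30), psmc4 (0.26) and psmc5 (0.14 to 0.41). The same held for psmd2 (0.11 and 0.87), psmd4a (0.15 each), psmd4b (0.51) and a dim psmd1 probe (0.39). Other probes of psmb2, psmb4, psmb7, psmc2 and psmc6 were lower, and those of psmc1a ran from -0.35 to 0.01. The direction depended in part on the choice of probe: the 39 other probes of the constitutive subunits had a median of 0.01, with 20 higher. With the second brightest probe of each gene the median was 0.04, beside 0.13 for all genes. With the mean of all probes of a gene it was -0.15, with 13 of 36 higher, beside 0.15 for all genes. Pooled over all genes, the SD between probes of one gene in this comparison was 0.33.

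Among the most negative differences of HCD+BBR minus HCD were those of psmd5 (-0.73) among the chaperones, psma2a (-0.43) and psma6a (-0.38) in the alpha rings, psmd2 (-0.41) and psmc6 (-0.38) in the base, psmb11b (-0.36) among the tissue-specific genes, psmb4 (-0.31) in the beta rings and psmd6 (-0.30) in the lid. The gene psmd5 was the only 1 of 46 past 1.5-fold lower, beside 5.05% of all genes. The other probes of psmd2 gave 0.11 and 0.87 and that of psmd6 gave 0.17, while those of psmb4, psmc6 and psmd5 were below 0. On the positive side were psmb13a (0.40), psma6l (0.33), psmd12 (0.26, with 5648 in HCD+BBR larvae, 4446 in HCD larvae and 3840 in control larvae) and psma3 (0.18). For psmd12, a structural lid subunit, the second probe gave 0.55. The inducible genes psmb12 (-0.17) and psmb10 (-0.09) were slightly lower with BBR than without it, and the PA28 genes psme1 (0.11) and psme2 (0.13) slightly higher.

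HCD+BBR against control was the comparison made within a slide. The constitutive subunits had a median of 0.12 (1.09-fold), with 33 of 37 higher in HCD+BBR, beside 46.5% of all genes, whose median was -0.03. When the 75th percentile was taken without outlier spots, which were far fewer on the HCD+BBR array, 19 of 37 were higher and their median was 0.00, with -0.15 for all genes. The distance between the 2 medians was 0.15 either way. All 11 base genes were higher (0.06 to 0.38), 8 of 9 lid genes (-0.06 to 0.52), 9 of 10 alpha ring genes (-0.14 to 1.22) and 5 of 7 beta ring genes (-0.12 to 0.29). For the beta ring gene psmb1, a brighter probe was passed over because its HCD spot was an outlier. That probe gave 0.52, against 0.05 for the probe used. A probe for the lid gene psmd13 was passed over for the same reason and gave 0.33, against 0.14 for the probe used. The lowest of all was psmb11b at -0.36. Past 1.5-fold higher were 8 of 48 genes, beside 10.4% of all genes: psmb13a, psmb12, psme2, psma6l, psme1, psma3, psmb10 and psma4.

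**Figure D4:**
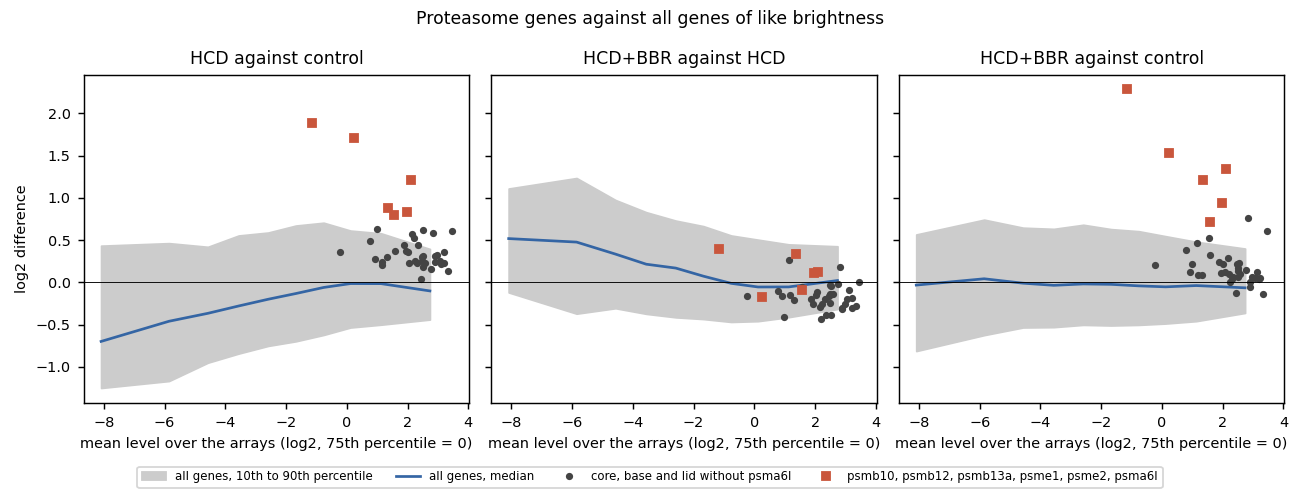
Log2 difference against mean level over the arrays for constitutive core, base and lid genes (circles) and for psmb10, psmb12, psmb13a, psme1, psme2 and psma6l (squares), over the median (line) and the 10th to 90th percentile (grey) of all genes in 10 bins of brightness. The medians of all genes slope with brightness in both comparisons with the HCD array and are flat in HCD+BBR against control; the squares lie above the grey band in HCD against control and in HCD+BBR against control.

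The difference of all genes followed brightness in the comparisons with the HCD array. In HCD against control the median was -0.70 in the dimmest of the 10 bins of genes and -0.10 in the brightest, and in HCD+BBR against HCD it was 0.52 and 0.02 in those bins. In HCD+BBR against control it lay between -0.06 and 0.04 in every bin. The constitutive subunits are bright, and in the brightest bin 10% of genes exceeded 0.39 in HCD against control. The part of this trend in the differences between brightest and dimmer probes was not tested.

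The partners of the proteasome comprise genes that build, supply or regulate it. Of 36 listed partners 31 were on the array and 30 were measured in HCD against control. Of these 17 were higher, beside 37.8% of all genes, with a median of 0.03. None was 2-fold higher and 1 was 2-fold lower, beside 3.69% and 4.68% of all genes. In HCD+BBR against HCD 13 of 29 were higher (median -0.06), beside 60.3% of all genes. None passed 2-fold in either direction, beside 6.73%. In HCD+BBR against control 13 of 31 were higher (median -0.04), beside 46.5% of all genes. None was 2-fold higher or lower, beside 3.95% and 1.36%. Of genes at least as bright as the dimmest constitutive subunit, 45.4%, 46.8% and 43.0% were higher in these 3 comparisons. Of the 5 assembly factors on the array, 4 were higher in HCD than in control (median 0.04) and all 5 were lower in HCD+BBR than in HCD (median -0.17, range -0.30 to -0.06). Some single partners resembled the subunits in HCD against control: the core assembly factor pomp differed by 0.36, the chaperone psmg1 by 0.37, the ubiquitin receptor adrm1 by 0.39, the deubiquitinase usp14 by 0.38 and the unfoldase vcp by 0.57. The medians of their lists, 0.04 for the assembly factors, were smaller than the 0.31 of the constitutive subunits. Of 10 other bound proteins, adrm1 and usp14 among them, 5 were higher and 5 lower (median 0.02), and psmf1, a proteasome inhibitor, differed by -0.40. Of 7 genes for delivery of substrate, vcp among them, 4 were higher (median 0.05).

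The partner past 2-fold was nfe2l1a, a zebrafish gene for Nrf1, with 198.6 in HCD+BBR larvae, 116.5 in HCD larvae and 273.1 in control larvae, a log2 difference of -1.24 for HCD minus control. It was a dim probe, in a bin of brightness where all genes had a median of -0.28 and a 10th percentile of -0.84. Its paralog nfe2l1b was well above background only in control. The stress regulator nfe2l2a had 12652 in HCD+BBR larvae, 10392 in HCD larvae and 13212 in control larvae, a difference of -0.36. The genes ddi2 and ngly1, whose mammalian products activate Nrf1, differed by 0.44 and 0.39.

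Both genes that the name rule caught without encoding a subunit were also measured. The gene psmc3ip, which acts in meiotic recombination, had 1228 in HCD+BBR larvae, 2178 in HCD larvae and 1005 in control larvae, 2.15-fold higher in HCD than in control and 0.532-fold in HCD+BBR relative to HCD. Its second probe gave 2.24-fold and 0.543-fold. The gene psme3ip1, whose product binds the psme3 activator, differed by 0.03 (HCD minus control) and -0.08 (HCD+BBR minus HCD). Neither is counted with the subunits above.

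**Figure D5:**
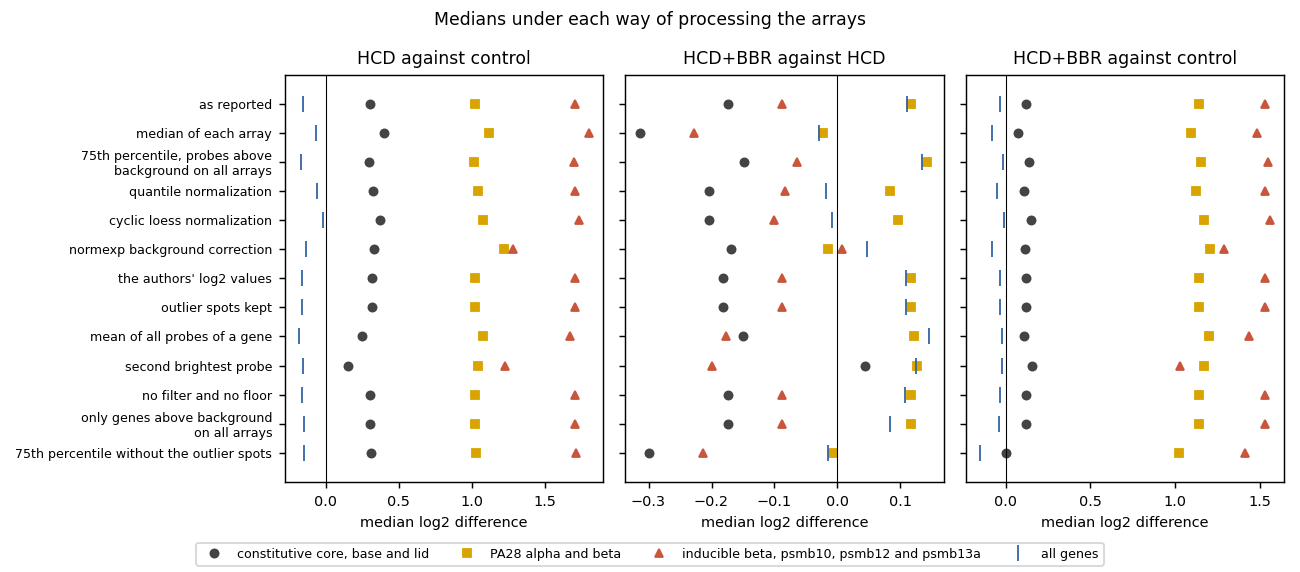
Median log2 difference of the constitutive core, base and lid genes (circles), of psme1 and psme2 (squares), of psmb10, psmb12 and psmb13a (triangles) and of all genes (bars) under each way of processing the arrays. The triangles and squares stay above 1 in both comparisons with control, while the circles in HCD+BBR against HCD lie between -0.31 and 0.04.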

How the data were processed

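Liver RNA of the 3 groups was hybridized to single-colour Agilent zebrafish arrays. The authors deposited the processed intensity of each spot, which is background-subtracted by Feature Extraction (version 11.5.1.1 per the file headers, 10.7 per the labels), and log2 values from GeneSpring. Set against the intensities, the deposited log2 values matched processed intensities on the log2 scale from which the array's own 75th percentile had been subtracted. The array design is annotated on Zv9. The number of arrays limits the precision.

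Control and outlier spots were removed, spots of one probe were averaged, and the 75th percentile over all 43603 probes was subtracted after log2 transformation. The brightest probe with a value on every array stood for a gene and is called its brightest probe. Without such a probe the brightest one was used. A gene entered a comparison if well above background on either array, a dim array being set to at least the lowest signal well above background, and 2-fold was the threshold, which is the fold part of the criterion of the study. Its corrected p-value was not used, since each group has 1 array. Accessions were named from a RefSeq gene table of assembly GRCz12tu, in which 13553 of 28397 matched. Each accession without a match was counted as a gene of its own, so 13443 of the 28287 genes carry a name. The rule for names took every gene past 2-fold, the highest and lowest of each class, the catalytic subunits with their inducible forms, psmd14, psmd4, the activators and the paralog pairs. The genes psma3, psma4 and psma8 and the partner genes named were chosen after their values were seen. The members and lists were chosen with earlier results of these data known. No sequence is shown, since sequences of the probes and promoters were not used here.

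The 3 comparisons share arrays. Alternatives were 3 other scalings, quantile and cyclic loess normalization and normexp correction (limma 3.58.1 in R 4.3.3), the deposited log2 values, outlier spots kept, other choices of probe, other filters and thresholds. The percentile without outlier spots was added after seeing the data. The code (Python 3.11.15, numpy 2.4.6, pandas 2.3.3, matplotlib 3.10.9) was tested on simulated data. The values of 1 listed partner gene are not reported here.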

Additional observations from a re-analysis of the deposited data

How the results depend on the processing

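No paired analysis was possible because each group had a single array, and leaving out a replicate or fitting the slide as a block was not run for the same reason. Over all 49 genes the median log2 difference was 0.32 for HCD against control, -0.16 for HCD+BBR against HCD and 0.14 for HCD+BBR against control, and no alternative run changed the sign of any of them. With the second brightest probe of each gene, which 30 genes had in the first comparison, these medians were 0.193, -0.0376 and 0.189. With the median of each array in place of the 75th percentile the median for HCD+BBR against HCD was -0.30, and with the percentile taken without outlier spots, an alternative chosen after seeing the data, it was -0.29 and that for HCD+BBR against control 0.0230, with 27 of 48 genes above 0 in place of 42. Scaling shifted the median of all genes as well: in HCD+BBR against HCD it was 0.11 as reported and -0.03 with the median of each array. Relative to all genes, the members lay 0.48, -0.27 and 0.17 away in the 3 comparisons as reported, and between 0.35 and 0.52, -0.30 and -0.16, and 0.15 and 0.22 under the alternatives. Medians of some single classes did change sign. In HCD+BBR against HCD the base median ran from -0.29 to 0.14 and the lid median from -0.32 to 0.31. The activator median ran from -0.03 to 0.30 there. In HCD+BBR against control the beta ring median ran from -0.08 to 0.08. In HCD against control no class median changed sign, but that of the lid fell to 0.003. Among all genes past 2-fold, 44.1% were higher in HCD than in control as reported, but 72.6% with cyclic loess; 79.4% were higher in HCD+BBR than in HCD, but 51.5% with quantile normalization; and 74.4% were higher in HCD+BBR than in control, but 61.3% without outlier spots. The proteasome genes past 2-fold numbered 3, 0 and 4 in the 3 comparisons. With the second brightest probe 2 passed in HCD+BBR against control, where psme2, psma6l and psmb13a have no such probe. Without a filter or floor 1 passed in HCD+BBR against HCD, psmb11a, which was not above background. At 1.5-fold 10, 1 and 8 passed. At 3-fold psmb12 and psmb13a passed in HCD against control, none in HCD+BBR against HCD, and psmb13a alone in HCD+BBR against control. Of 78 alternatives for these medians and counts, 67 stayed within the tolerance of 0.1 log2 units for medians or within 1.5 times the count. Of 79 alternatives for the single genes past 2-fold, 78 remained past it.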
